A study of Xenopus laevis with 12 samples.

Results

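The comparison described here sets thioridazine-treated *Xenopus laevis* embryos kept in groups of 300 against thioridazine-treated embryos kept in groups of 100. It rests on 6 of the 12 RNA-seq libraries of the stage 25 data, 3 per group size, paired by the replicate number in their labels. Gene expression was compared for every gene with a CPM (count per 1e6 counts of its library) of at least 1.8 in at least 3 of the 12 libraries, which left 21731 of the 42638 genes in the count table. Embryos of both groups were wild type and whole, were exposed to 90 µM thioridazine from late gastrulation to stage 25, and were sampled as pools of 15 embryos per library. The other 6 libraries, from untreated embryos of the same stage in groups of 300 and of 100, entered the fit and serve as the comparison without the drug. The study's text gives other stages and another concentration in places, and the values of the labels are used here. The study says in general that its experiments were run again on different weeks, but not which of these libraries, if any, came from separate runs or clutches, and the p-values therefore cover only the scatter among these libraries, which may be technical.

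Thioridazine is an antipsychotic of the phenothiazine class that blocks dopamine receptors, and in *Xenopus* embryos it acts as a teratogen. The study asked whether embryos that develop beside many others are affected less by such a drug, and these libraries address whether gene expression at the end of the exposure differed with group size. Embryos of this stage, the tail bud stage, have closed the neural tube and have begun to form eyes, somites, heart and pronephros. All of these tissues were mixed in each library, and in such bulk RNA fewer cells of a type and less RNA per cell cannot be told apart. *X. laevis* is allotetraploid, so that most genes are present in 2 similar copies (homeologs), marked .L and .S. A read that fits several genes was divided between them by RSEM, which makes the level of each copy uncertain.

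The total expected count of the thioridazine libraries was 3497198 to 7379636 in groups of 300 and 3639288 to 7822395 in groups of 100. The libraries numbered 3 were the shallowest of both groups. For untreated replicates 1, 2 and 3 the total was 7222013, 6720632 and 5496905 in groups of 300. In untreated groups of 100 the total was 6540861, 3550845 and 3701983. Markers of muscle, epidermis, nervous system, cilia, neural crest, pronephros, notochord and cement gland were measured in the 12 libraries: actc1.L was at 627 to 1316 CPM and krt12.4.L at 1836 to 3548 CPM. Of 24 marker symbols 22 were found in the count table and 19 had a copy that passed the filter. The blood cell factor gata1, the globin hbg1 and the heart myosin light chain myl7 had none. Other markers of blood and heart passed, with the globin hba3.L at 2.69 to 15.5 CPM and the heart factor nkx2-5.L at 4.84 to 12.5 CPM. The gene listed as ccdc50.L_1 took 4.94% of the counts of thioridazine 300 replicate 3 and 0.967% to 2.68% of the other 3 thioridazine libraries in which it was the most abundant gene. Below, levels are CPM scaled by TMM, a correction for the composition of each library, and are given in the order of the replicate numbers 1, 2 and 3, and "groups of 300" and "groups of 100" are thioridazine-treated unless they are called untreated.

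No gene passed the test between groups of 300 and groups of 100. edgeR's quasi-likelihood test with the replicate number as a block called 0 of 21731 genes (0%) at an adjusted p under 0.05, and the smallest adjusted p was 0.999. At an unadjusted p below 0.05, 308 genes (1.42%) were higher and 340 (1.56%) lower in groups of 300, against 1087 expected by chance for the 2 directions together. limma voom with the block also called 0 genes, with 782 at an unadjusted p below 0.05. DESeq2 with the block called 1 gene, the small nuclear RNA gene LOC121392961 described below, with 333 genes at an unadjusted p below 0.05. Without the replicate block the count of calls by edgeR was 0, and 158 genes had an unadjusted p below 0.05. All genes named below are therefore given by their levels, and none of them passed the adjusted threshold in the fit of the 12 libraries.

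**Figure D1:**
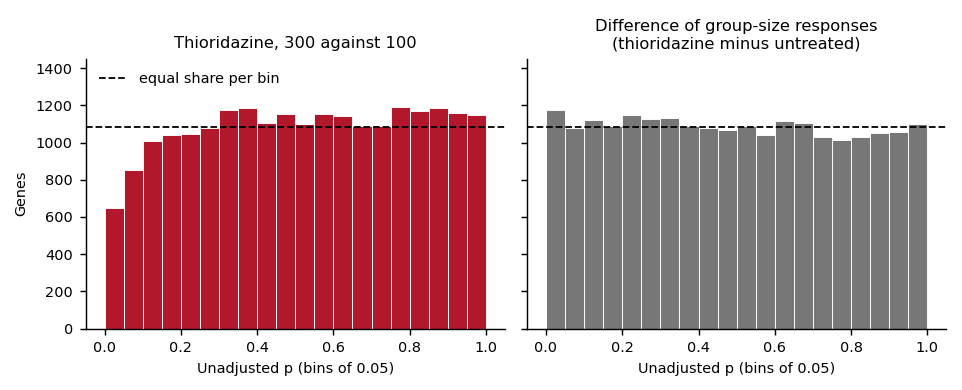
Histograms of the unadjusted p of 21731 genes from edgeR's quasi-likelihood test with the replicate block, in bins of 0.05, for thioridazine 300 against 100 (left) and for the difference of the group-size responses (right). The dashed line marks an equal share of genes per bin (1087), and the lowest bin holds 648 genes on the left and 1176 on the right.

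The fit bounds the size of the differences for most genes. The standard error (SE) of a log2 fold change had a median of 0.21 and lay between 0.14 and 0.51 from its 5th to its 95th percentile. For 17447 genes (80.3%) the 95% interval lay within a 2-fold change in either direction, and for 9335 genes (43.0%) within a 1.49-fold change. For the remaining genes the interval reached past a 2-fold change. A fitted log2 fold change beyond 1 in size was found for 199 genes.

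The 3 pairs of libraries did not share a direction for most genes. Across the 21731 genes the log2 ratio of groups of 300 over groups of 100 in pair 1 correlated with that in pair 2 at r = 0.04 (Spearman 0.02), with that in pair 3 at r = -0.03 (Spearman -0.06), and pairs 2 and 3 correlated at r = 0.01 (Spearman 0.03). These are correlations across genes, which are not independent, and no library is shared between pairs. The ratios spread most in pair 3 (SD 0.61), then in pair 1 (0.46) and pair 2 (0.37). In all 3 pairs 2546 genes (11.7%) lay higher and 2789 (12.8%) lower in groups of 300. The 3 libraries of groups of 300 lay above all 3 of groups of 100 for 375 genes (1.73%) and below them for 443 (2.04%). For comparison, 24.4% of genes kept 1 direction in 3 of 3 untreated pairs and 24.6% in the thioridazine pairs. Directions drawn at random and independently in 3 pairs would give a share close to these.

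**Figure D2:**
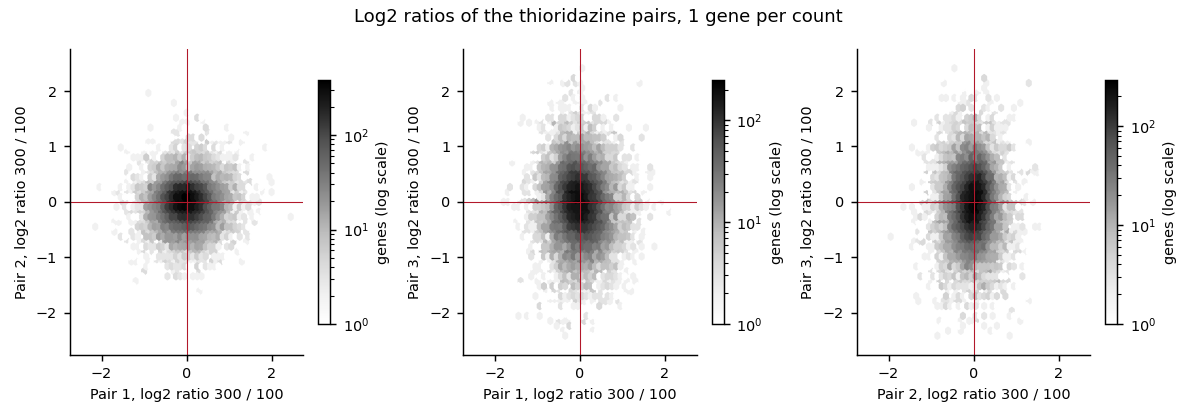
Log2 ratio of CPM, groups of 300 over groups of 100, for each pair of thioridazine libraries against each other pair, as a density of genes with a log scale of grey. The clouds lie round the origin with r of 0.04, -0.03 and 0.01, and values beyond 2.5 in size are not drawn.

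Among the 12 genes with a symbol and the smallest p on the higher side, 3 encode pyruvate dehydrogenase kinases, which phosphorylate and switch off the enzyme that feeds pyruvate into the citric acid cycle. pdk4.L was at 70.8, 47.5 and 42.1 CPM in groups of 300 and at 30.2, 26.3 and 27.7 CPM in groups of 100 (log2 fold change 0.90, SE 0.21). Its homeolog pdk4.S was at 50.8, 37.9 and 41.8 CPM in groups of 300, against 23.9, 27.5 and 25.1 CPM in groups of 100 (log2 fold change 0.75, SE 0.21). The levels of both copies did not overlap between the group sizes, and in both the gap was widest in pair 1. pdk3.L was at 114, 45.1 and 77.0 CPM, against 64.1, 36.5 and 41.6 CPM (0.68, SE 0.18), and was higher within each pair although the groups overlapped. Its homeolog pdk3.S was closer to 0 on the log2 scale, at 0.22 (SE 0.22). pdk4.L had an adjusted p of 0.0448 by edgeR's quasi-likelihood test when untreated 100 replicate 1 was left out, and 0.999 in the fit of the 12 libraries.

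In untreated embryos the same kinases did not keep this order, and for pdk4.L and pdk3.L the gap was wide in pair 1 alone. pdk4.L was at 33.1, 25.9 and 26.9 CPM in untreated groups of 300 and at 67.6, 25.7 and 27.7 CPM in untreated groups of 100. Replicate 1 of the untreated groups of 100 was far above the other untreated libraries and close to replicate 1 of the thioridazine-treated groups of 300. For pdk3.L the levels were 57.3, 30.4 and 39.1 CPM in untreated groups of 300. In untreated groups of 100 they were 98.3, 31.2 and 37.1 CPM, and replicate 1 was again the highest in each group. pdk4.S was at 29.5, 27.8 and 23.0 CPM in untreated groups of 300 and 45.5, 19.4 and 32.0 CPM in untreated groups of 100.

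h1-10.S, a linker histone gene and the one with the smallest p among genes with a symbol, was at 131, 55.7 and 65.2 CPM in groups of 300 and at 63.2, 39.6 and 37.8 CPM in groups of 100 (log2 fold change 0.77, SE 0.17). Linker histones bind the DNA between nucleosomes and compact it. The gene was higher in 3 of 3 pairs, and replicate 1 had the highest level of each group, so that the groups overlapped.

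Other genes of the higher side act in transcription and signalling. sinhcaf.L, a subunit of a Sin3 histone deacetylase complex, was at 139, 125 and 141 CPM in groups of 300, against 73.2, 79.3 and 96.2 CPM in groups of 100 (log2 fold change 0.70, SE 0.18). ppp1r14a.S, an inhibitor of myosin phosphatase, was at 26.5, 22.4 and 20.6 CPM, against 14.2, 15.1 and 13.6 CPM (0.69, SE 0.18). Neither gene overlapped between the group sizes, while sinhcaf.S was at 0.05 on the log2 scale (SE 0.18). gbx2.1.L, a homeobox factor of the boundary between midbrain and hindbrain, was at 15.0, 33.4 and 37.9 CPM in groups of 300 and 7.83, 24.6 and 20.9 CPM in groups of 100, with replicate 1 the lowest of each group. tnip2.L, which restrains NF-kappa-B signalling, was at 26.3, 34.9 and 56.7 CPM, against 14.9, 29.0 and 36.9 CPM. ranbp3l.S, an exporter of Smad proteins from the nucleus in mammals, was at 32.7, 17.6 and 22.4 CPM, against 16.4, 16.1 and 10.6 CPM. These 3 genes were higher in 3 of 3 pairs, and ranbp3l.S alone among them did not overlap between the groups. shfl.S, an interferon-induced antiviral gene in humans, had the largest log2 fold change of the 12 (2.30, SE 0.62), at 3.89, 2.01 and 2.12 CPM in groups of 300 and 0.854, 0.503 and 0 CPM in groups of 100, which is close to the filter on low counts.

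The 12 genes of the smallest p on the lower side were of mixed function. serpind1.L encodes heparin cofactor II, a liver-made inhibitor of thrombin, and was at 4.87, 6.71 and 5.46 CPM in groups of 300, against 13.1, 11.3 and 16.2 CPM in groups of 100 (log2 fold change -1.22, SE 0.29). Each library of groups of 300 lay below each library of groups of 100. cyp2j2.L, a cytochrome P450 that oxidizes fatty acids and drugs, was at 9.54, 11.3 and 10.9 CPM, against 19.5, 15.5 and 16.2 CPM (-0.68, SE 0.19). The same gene was at 3.05, 2.71 and 2.14 CPM in untreated groups of 300 and 3.22, 2.89 and 2.86 CPM in untreated groups of 100, below all 6 thioridazine libraries. mkks.L, a chaperonin-like protein needed to assemble a complex of the cilium, was at 7.396, 10.6 and 6.97 CPM, against 11.53, 16.7 and 13.9 CPM (-0.74, SE 0.20).

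atl2.L varied little within each group. It encodes an atlastin, a GTPase that fuses tubules of the endoplasmic reticulum, and was at 7.98, 7.92 and 7.58 CPM in groups of 300 and 12.96, 12.7 and 12.7 CPM in groups of 100 (-0.71 on the log2 scale, SE 0.21). tmem163.S, a zinc transporter, was at 6.62, 5.77 and 5.15 CPM, against 12.24, 8.67 and 10.3 CPM (-0.79, SE 0.24). Neither gene overlapped between the group sizes. Among genes of mitochondria, ptcd1.L, an RNA-binding protein, was at 15.96, 35.9 and 27.6 CPM in groups of 300, against 23.5, 50.9 and 34.8 CPM in groups of 100. mettl15.S, an rRNA methyltransferase, was at 1.56, 1.48 and 0.909 CPM, against 4.13, 2.51 and 4.43 CPM. slc25a22l.L, named as a glutamate carrier of the inner membrane, was at 47.1, 29.5 and 41.8 CPM, against 61.1, 47.1 and 62.8 CPM. All 3 were lower in 3 of 3 pairs, and ptcd1.L overlapped between the groups. The remaining members of the 12 were lgals4.2.S, lrrc15.S, sh3tc2.L and fgr.S, with log2 fold changes of -1.11, -1.05, -0.91 and -1.69 and SE of 0.33, 0.32, 0.28 and 0.52. fgr.S, a Src family kinase of myeloid cells, was lower in 2 of 3 pairs, and the other 11 of the 12 genes in 3 of 3. Since these genes were taken for their small p, the pair counts are a description and give no separate support.

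**Figure D3:**
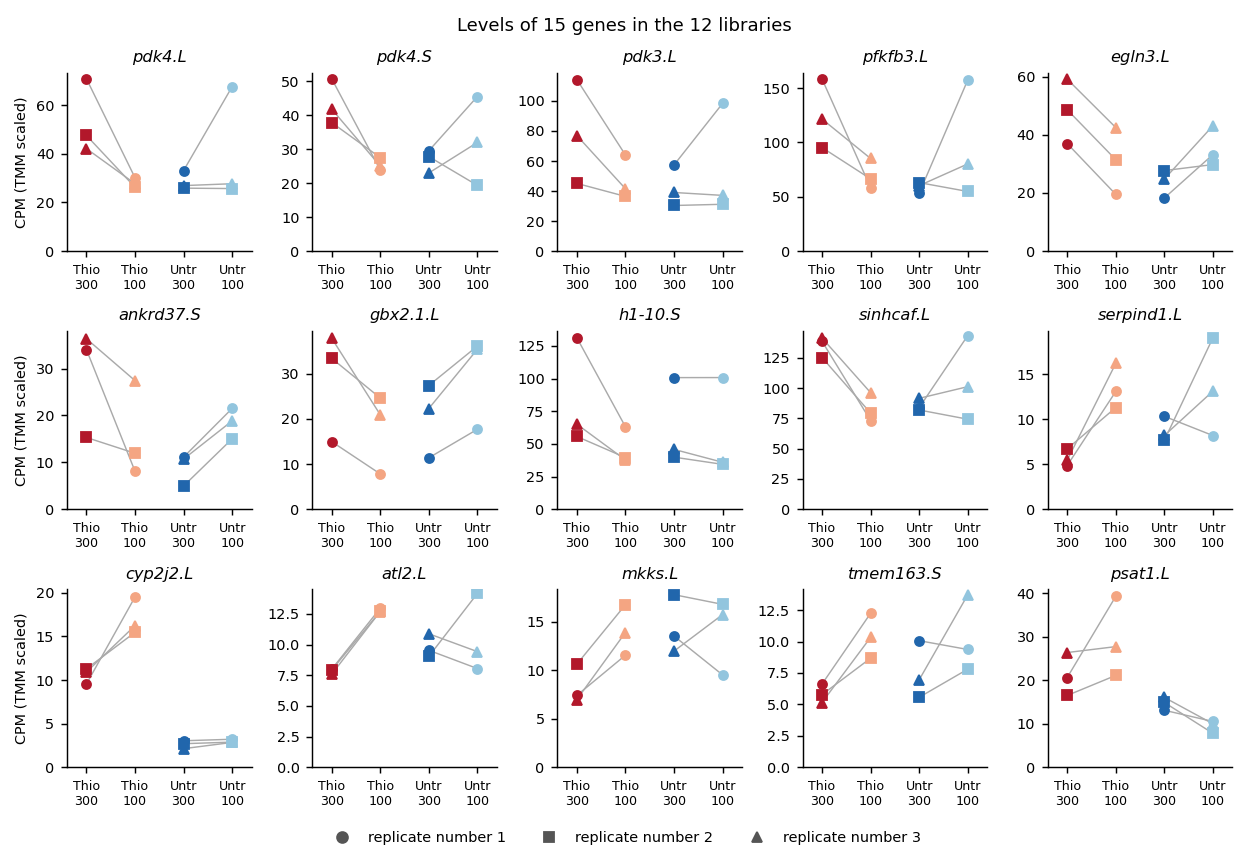
CPM of 15 genes in the 12 libraries, thioridazine-treated groups of 300 and of 100 and then untreated groups of 300 and of 100, with a marker for each replicate number and a line joining the libraries of a pair. In the thioridazine pairs pdk4.L lies between 42.1 and 70.8 CPM in groups of 300 and between 26.3 and 30.2 CPM in groups of 100, while serpind1.L and atl2.L are lower in groups of 300.

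Ranking by the smallest of the 3 pair ratios gave genes of which most were at low levels, and shfl.S was among them again. The 8 on the higher side were shfl.S, hes6.2.L, fbxo25.L, tnfrsf9.L, enox1.S, mapk8ip2.L, dnajc27.S and ube2u.L, and none had a mean above 7.73 CPM in groups of 300. fbxo25.L, an F-box subunit of a ubiquitin ligase, was at 3.11, 3.09 and 2.73 CPM in groups of 300, against 1.14, 1.51 and 1.18 CPM in groups of 100. dnajc27.S, a small GTPase with a J domain, was at 2.72, 2.42 and 2.73 CPM, against 0.854, 1.13 and 1.48 CPM. The levels of neither gene overlapped between the groups. The 8 on the lower side were dok6.L, uchl1.L, crygdl.11.S, sbk3.L, slc4a2.S, zyg11b.L, ocm4.10.L and hnf4a.S. slc4a2.S, an exchanger of chloride and bicarbonate, was at 1.17, 1.48 and 1.52 CPM, against 2.99, 2.77 and 4.43 CPM. hnf4a.S, a transcription factor of endoderm and liver, was at 15.6, 2.28 and 4.85 CPM in groups of 300 and 26.5, 4.40 and 10.03 CPM in groups of 100. Its replicates differed more than its group sizes did, and its log2 fold change of -0.89 had a SE of 0.48.

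Of 47 genes of the hypoxia response, 9 were higher and 0 lower at an unadjusted p below 0.05 (19.1% and 0%), where 1.42% and 1.56% of all genes were. That share of higher genes was the largest of the 47 lists. When oxygen is low, the transcription factor HIF escapes the prolyl hydroxylases that mark it for destruction, and it then activates genes of glucose uptake, glycolysis and oxygen supply. egln3.L, a prolyl hydroxylase that is also a HIF target, was at 37.0, 48.6 and 59.1 CPM in groups of 300 and 19.5, 31.4 and 42.5 CPM in groups of 100 (log2 fold change 0.67, SE 0.18). ankrd37.S, another HIF target, was at 34.1, 15.3 and 36.4 CPM, against 8.12, 11.9 and 27.4 CPM (0.88, SE 0.31). pfkfb3.L makes the activator of the committed step of glycolysis and was at 158, 95.3 and 122 CPM, against 58.5, 66.5 and 85.3 CPM (0.80, SE 0.28). All 3 were higher in 3 of 3 pairs, and pfkfb3.L did not overlap. The other 6 were pfkfb3.S, the glucose transporter slc2a1.S, the prolyl hydroxylases egln1.S and egln2.S, the collagen prolyl hydroxylase p4ha2.L and the mitophagy receptor bnip3.L, with log2 fold changes of 0.63, 0.54, 0.64, 0.53, 0.43 and 0.38.

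Over the whole list, 33 of 47 genes lay above 0 and the median of the fitted log2 values was 0.15, against a median of -0.0025 over all genes tested. Of the 47 genes 18 were higher and 4 lower in 3 of 3 pairs, where 11.7% and 12.8% of all genes were. The median was 0.28 in pair 1, 0.19 in pair 2 and 0.11 in pair 3. The count of 9 genes dropped to 2 without the replicate block and to 2 without thioridazine 100 replicate 1, to 3 without thioridazine 300 replicate 1 and to 4 without all libraries numbered 1. It was 13 without untreated 100 replicate 1 and 7 to 11 without any other library or number. Leaving out the libraries numbered 1 left the median at 0.14.

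Of 65 genes of glycolysis and gluconeogenesis, 9 were higher and 0 lower at an unadjusted p below 0.05 (13.8% and 0%), against 1.42% and 1.56% of all genes. Of these 9, 3 were also in the hypoxia list (pfkfb3.L, pfkfb3.S and slc2a1.S). The others were the 3 kinase genes above, the hexokinases hk1.L and hk2.L and the phosphoglycerate kinase pgk1.L. hk1.L was at 149.9, 88.4 and 122 CPM in groups of 300, against 96.2, 80.0 and 69.9 CPM in groups of 100 (0.53 on the log2 scale, SE 0.20). pgk1.L was at 40.9, 12.8 and 14.9 CPM, against 24.5, 7.29 and 10.9 CPM (0.69, SE 0.25). Replicate 1 was its highest library at each group size. The list had a median of 0.07, with 43 of 65 genes above 0, and its fitted median in untreated embryos was 0.06. The count of 9 dropped to 3 without the replicate block and to 3 without thioridazine 100 replicate 1, and was 6 to 12 without any other library or number. The 119 genes of the respiratory chain and ATP synthase, which take up the products of pyruvate oxidation, had a median of -0.16, with 24 above 0. Of these 0 were higher and 1 lower at an unadjusted p below 0.05, namely atp5po.S at 31.3, 14.1 and 14.6 CPM, against 34.0, 19.1 and 30.4 CPM. The median of the respiratory chain list was 0.02 in pair 1, -0.11 in pair 2 and -0.34 in pair 3. In untreated embryos its fitted median was -0.14.

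Genes of the neural plate border, placodes and brain mostly lay above 0, with the highest medians in pair 3. Of 71 genes of the neural crest and pharyngeal arches, 57 lay above 0. Among the 71, 6 were higher and 1 lower at an unadjusted p below 0.05 (8.45% and 1.41%), against 1.42% and 1.56% of all genes. dlx5.L, a homeobox factor of the neural plate border, placodes and arches, was at 57.6, 41.9 and 53.4 CPM in groups of 300 and 39.6, 40.7 and 23.6 CPM in groups of 100 (log2 fold change 0.54, SE 0.18). dlx5.S was at 47.7, 29.1 and 33.6 CPM, against 28.9, 28.9 and 24.8 CPM (0.39, SE 0.17). Neither copy overlapped between the group sizes. The median of the list was -0.02 in pair 1, 0.05 in pair 2 and 0.49 in pair 3, and in untreated embryos the fitted median was 0.22. Of the 38 genes of placodes and lens 34 lay above 0 (median 0.17), with 4 higher and 0 lower, and those 4 (both copies of dlx5, dlx3.S and dlx6.S) were also in the neural crest list.

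For 73 regional factors of brain and eye the median was 0.22, the highest of the 47 lists, and for 65 genes of neural progenitors it was 0.18. At an unadjusted p below 0.05, 2 genes of the brain and eye list (2.74%) and 3 of the progenitor list (4.62%) were higher, against 1.42% of all genes, and 0 were lower in either, so that the brain and eye count lies near that of all genes. rax.L, which marks the eye field and retina, was at 23.0, 35.0 and 35.2 CPM in groups of 300 and 16.2, 26.0 and 12.39 CPM in groups of 100, with the widest gap in pair 3. hoxa2.L, which patterns the hindbrain and the second pharyngeal arch, was at 7.396, 8.73 and 10.9 CPM, against 5.13, 5.91 and 6.49 CPM, and did not overlap. The median of the brain and eye list was 0.01 in pair 1, 0.15 in pair 2 and 0.42 in pair 3. Untreated embryos had fitted medians of 0.20 and 0.29 for these lists.

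The medians of these 4 lists depended on single libraries. Without thioridazine 100 replicate 3 they were 0.07 for neural crest and arches, 0.12 for placodes and lens, and 0.14 for brain and eye and for neural progenitors. Without all libraries numbered 3 they were 0.06, 0.10, 0.13 and 0.15 in the same order. Without thioridazine 300 replicate 1 the medians were 0.21, 0.30, 0.36 and 0.35, and without thioridazine 100 replicate 2 they were 0.25, 0.30, 0.35 and 0.29. Without thioridazine 300 replicate 2 the median was 0.12 for brain and eye and 0.05 for neural progenitors. All of these medians stayed above 0. Thioridazine 100 replicate 3 also differed from its group in other measures. The summed snoRNA level was 1359, 668 and 2436 CPM in groups of 300, against 1377, 1049.6 and 4787 CPM in groups of 100. elavl3.L, an RNA-binding protein of neurons, was at 24.1, 36.4 and 15.16 CPM in groups of 300, against 34.7, 30.7 and 8.26 CPM in groups of 100. Untreated 100 replicates 2 and 3 likewise had more snoRNA (3809 and 4334 CPM) and less elavl3.L (13.6 and 7.998 CPM) than untreated 100 replicate 1. The part of these library differences in the list medians was not tested beyond the values without the libraries.

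Of 56 Notch pathway genes, 3 were higher and 0 lower at an unadjusted p below 0.05 (5.36% and 0%), against 1.42% and 1.56% of all genes. In 3 of 3 pairs 16 were higher and 0 lower, where 11.7% and 12.8% of all genes were. The list medians were 0.07, 0.21 and 0.004 in pairs 1, 2 and 3. The 3 genes with an unadjusted p below 0.05 were Hes factors, the transcriptional repressors that Notch signalling switches on or that act beside it. hes1.L was at 61.9, 58.1 and 50.6 CPM in groups of 300 and 40.0, 44.5 and 50.2 CPM in groups of 100 (0.35 on the log2 scale, SE 0.15). hes4.L was at 61.9, 61.9 and 64.3 CPM, against 46.4, 56.4 and 46.0 CPM (0.33, SE 0.14). hes6.2.L was near the filter, at 1.56, 3.36 and 1.52 CPM, against 0.427, 1.38 and 0.590 CPM. In none of the 3 did the groups overlap. A list of 89 genes of BMP, Nodal and TGF-beta signalling had 6 higher and 1 lower (6.74% and 1.12%). Its receptor bmpr1b.S was at 23.0, 30.6 and 26.4 CPM, against 18.4, 18.103 and 15.6 CPM. The ventral BMP target ventx2.1.L was at 67.0, 81.2 and 110.3 CPM, against 23.6, 62.0 and 100.3 CPM, with its widest gap in pair 1. The member on the lower side was the ligand tgfb2.S (-0.58, SE 0.20).

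Immediate early genes, which respond to stimuli without new protein synthesis, lay above 0 in 45 of 55 cases with a median of 0.12. Among them 2 were higher and 0 lower at an unadjusted p below 0.05 (3.64% and 0%), against 1.42% and 1.56% of all genes. Both were copies of klf10, a transcription factor induced by TGF-beta: klf10.S was at 112, 98.2 and 87.0 CPM in groups of 300 and 73.2, 84.0 and 70.5 CPM in groups of 100, and klf10.L was at 0.39 on the log2 scale (SE 0.17). Of 52 hox genes 3 were higher and 0 lower (5.77% and 0%). In 3 of 3 pairs 18 were higher and 1 lower, where 11.7% and 12.8% of all genes were. hoxc6.S, a factor of the trunk, was at 14.2, 23.2 and 27.3 CPM, against 10.1, 16.3 and 20.1 CPM, with overlapping groups and the lowest level of each group in replicate 1.

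Lists of protein synthesis, folding and turnover had medians below 0. Of 136 genes of cytosolic ribosomal proteins 8 lay above 0, with a median of -0.14, and 0 were lower or higher at an unadjusted p below 0.05. In 3 of 3 pairs 38 were lower and 0 higher, where 12.8% and 11.7% of all genes were. The median was 0.06 in pair 1, -0.14 in pair 2 and -0.34 in pair 3. Untreated embryos had a fitted median of -0.25, further below 0 than under thioridazine, and 111 of 136 genes lay above 0 for the difference of the responses. rplp1.L, a protein of the ribosomal stalk, was at 334, 209 and 208 CPM in groups of 300 and 352, 243 and 303 CPM in groups of 100, which overlapped. Of 81 proteasome genes 11 lay above 0, with medians of -0.16, -0.11 and -0.19 in the 3 pairs. Among the 81, 1 was higher and 3 lower at an unadjusted p below 0.05 (1.23% and 3.7%), against 1.42% and 1.56% of all genes. psmc4.S, an ATPase of the regulatory particle, was at 8.76, 9.53 and 9.09 CPM, against 13.8, 11.7 and 11.8 CPM, and did not overlap. The gene on the higher side was psmf1.L, which encodes an inhibitor of the proteasome, at 13.2, 6.98 and 5.46 CPM, against 7.404, 5.03 and 3.25 CPM.

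The unfolded protein and integrated stress response list held 58 genes, of which 16 lay above 0. Among the 58, 0 were higher and 3 lower at an unadjusted p below 0.05 (0% and 5.17%), against 1.42% and 1.56% of all genes. psat1.L, an enzyme of serine synthesis and an ATF4 target, was at 20.6, 16.5 and 26.4 CPM in groups of 300 and 39.3, 21.1 and 27.7 CPM in groups of 100, and psat1.S at 16.2, 10.6 and 26.4 CPM, against 24.2, 16.3 and 27.1 CPM. Untreated embryos had 13.1, 14.9 and 16.1 CPM of psat1.L in groups of 300 and 10.5, 7.804 and 9.998 CPM in groups of 100, so that its order with group size was the opposite one there. creld2.L, a chaperone-like protein of the endoplasmic reticulum, was at 10.5, 8.06 and 6.37 CPM, against 14.1, 10.1 and 15.6 CPM. The cholesterol list (synthesis and uptake) had 9 of its 49 genes above 0, a median of -0.14 and pair medians of -0.30, -0.14 and 0.01 for pairs 1, 2 and 3. sc5d.L, a desaturase of late sterol synthesis, was at 5.64, 2.42 and 3.33 CPM, against 8.12, 5.28 and 6.196 CPM (-0.81, SE 0.27), and the regulator srebf2.S at 67.0, 53.7 and 57.6 CPM, against 97.8, 75.4 and 50.5 CPM. sc5d.L was lower in 3 of 3 pairs and srebf2.S in 2 of 3.

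**Figure D4:**
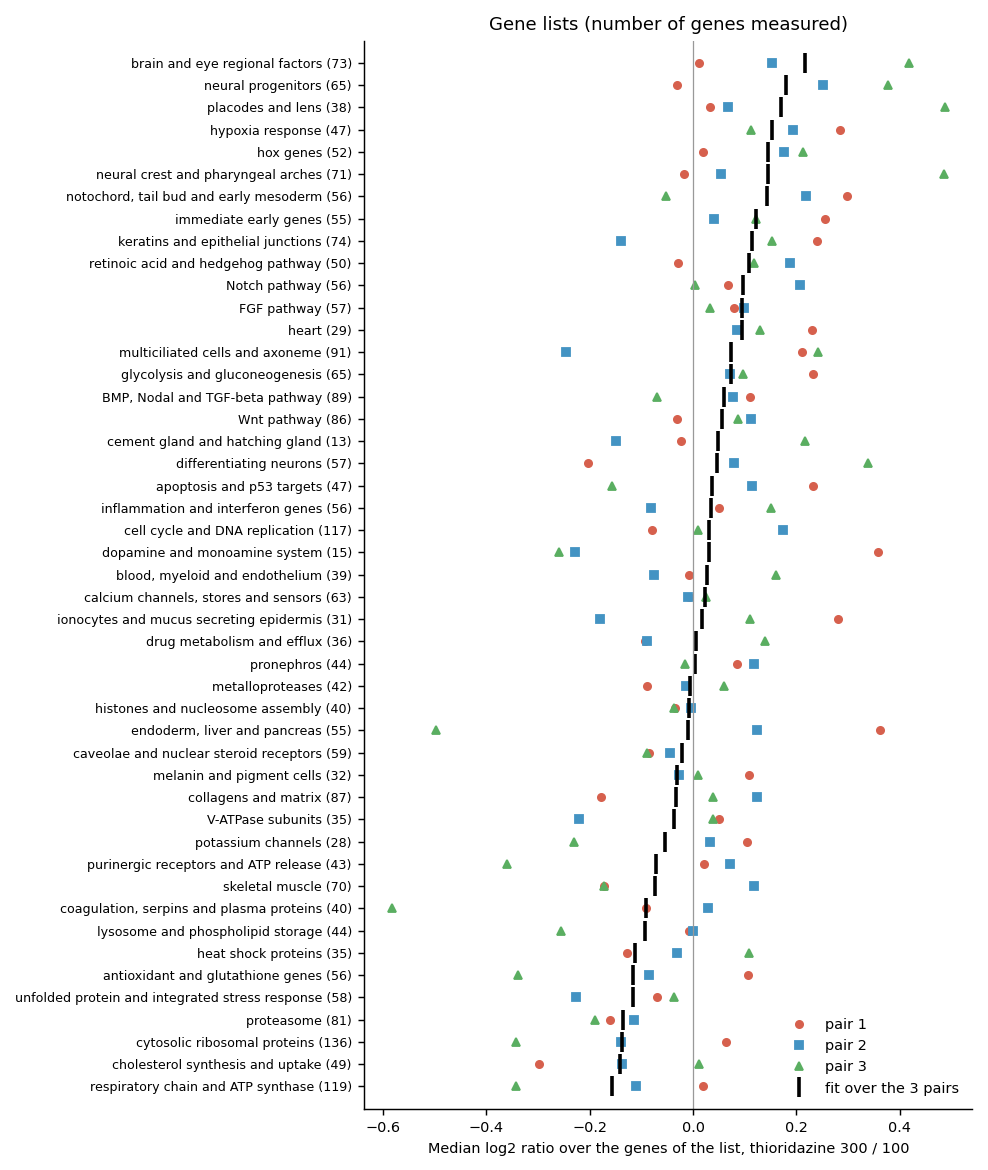
Median log2 ratio of groups of 300 over groups of 100 under thioridazine for 47 gene lists, with the number of genes measured in brackets. Coloured points are the medians within pairs 1, 2 and 3, and the black tick is the median of the fitted log2 fold changes, from -0.16 to 0.22. The 3 pairs lay on the same side of 0 for 13 of the 47 lists.

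Endoderm, liver and pancreas genes had opposite medians in the pairs: 0.36 in pair 1, 0.12 in pair 2 and -0.50 in pair 3 over 55 genes, with a fitted median of -0.01. tf.L, which encodes the iron carrier transferrin, was at 23.2, 47.8 and 80.6 CPM in groups of 300 and 29.9, 47.1 and 155 CPM in groups of 100. Untreated embryos had 28.5, 44.3 and 94.6 CPM of tf.L in groups of 300 and 35.9, 69.9 and 157 CPM in groups of 100. Replicate 3 was thus the highest in each group, with and without the drug. Of 36 genes of drug metabolism and efflux 1 was higher and 1 lower at an unadjusted p below 0.05. The lower one was cyp2j2.L, and the higher one cyp1a1.S, which oxidizes aromatic compounds and is a target of the aryl hydrocarbon receptor, at 17.9, 4.43 and 6.37 CPM in groups of 300, against 4.41, 2.01 and 5.90 CPM in groups of 100. Replicate 1 of groups of 300 stood apart from the others. Among other tissue lists, 0 of 70 genes of skeletal muscle, 0 of 91 of multiciliated cells and axoneme, 0 of 74 of keratins and epithelial junctions and 0 of 57 of differentiating neurons had an unadjusted p below 0.05. The shares over all genes were 1.42% higher and 1.56% lower. Of 39 genes of blood, myeloid cells and endothelium 2 were higher and 1 lower (5.13% and 2.56%), of 44 of the pronephros 2 and 1 (4.55% and 2.27%), and of 42 metalloproteases 1 and 2 (2.38% and 4.76%). Of 87 genes of collagens and matrix 1 was higher and 2 lower, of 56 of notochord, tail bud and early mesoderm 2 and 0, and of 40 of coagulation, serpins and plasma proteins 0 and 2. In the pigment list, 1 of 32 genes was higher and 0 were lower, and the gene was pax7.L at 3.31, 1.88 and 3.03 CPM, against 2.56, 1.13 and 0.295 CPM.

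Genes named as P2 receptors, a family that includes receptors for extracellular ATP, are given here. The study blocked P2 receptors with drugs in its tests of group size. Of the P2 receptor copies counted, 11 passed the filter, and none had an unadjusted p below 0.05. The ATP-gated channel p2rx1.L was lower in 3 of 3 pairs, at 8.76, 3.09 and 2.42 CPM in groups of 300 and 10.3, 4.65 and 4.43 CPM in groups of 100 (-0.46 on the log2 scale, SE 0.28), and so was the G protein-coupled receptor p2ry1.L (-0.38, SE 0.26). p2ry4.L had the highest level of them, at 26.9, 64.2 and 58.2 CPM, against 21.2, 56.9 and 41.0 CPM, and p2ry4.L and p2ry2.L were higher in 3 of 3 pairs. p2ry2.L was at 4.87, 5.77 and 4.85 CPM, against 3.42, 4.53 and 4.43 CPM, without overlap. The log2 fold changes of p2rx4.L, p2rx5.L, p2ry1.S, p2ry10.S, p2ry11.L, p2ry11.S and p2ry6.S lay between -0.41 and 0.04, with standard errors of 0.21 to 0.54. No dopamine receptor gene passed the filter. drd5.L, the most abundant, averaged 1.55 CPM in groups of 300 and 1.29 CPM in groups of 100.

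Homeologs gave a further view of the same ratios. Both copies were tested for 5586 symbols, and across them the log2 fold changes of the .L and .S copies correlated at r = 0.27 (Spearman 0.34). Copies share reads and libraries, so they are not independent measurements. Both copies had an unadjusted p below 0.05 for 16 symbols, chosen after their values were seen, and 15 of them had the same direction. In 12 both copies were higher, among them pdk4, pfkfb3, dlx5, klf10, ranbp3l, tnip2, the hematopoietic and epidermal factor gata2 and the insulin receptor substrate irs4. In 3 both were lower, namely psat1, the volume-regulated anion channel subunit lrrc8b and the ubiquitin-conjugating enzyme ube2d4. The copies of nans, an enzyme of sialic acid synthesis, lay on opposite sides (0.36 for .L and -0.48 for .S).

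The gene LOC121392961, annotated as a small nuclear RNA of 164 bases, was listed at 0 expected counts in the 3 libraries of groups of 300 and at 20.6, 11.6 and 95.1 CPM in groups of 100. In untreated embryos it was at 25.0, 25.9 and 73.8 CPM in groups of 300 and 21.3, 67.9 and 58.6 CPM in groups of 100. With a floor of 3 counts over the 3 libraries, the mean assigned to it by RSEM in groups of 300 was at least 225-fold lower than in groups of 100. That figure bounds the assigned counts and not the amount of this RNA. The adjusted p was 0.999 with edgeR's quasi-likelihood test over the 12 libraries, 1.42e-08 with DESeq2, and 1.05e-04 with edgeR on the thioridazine libraries alone. The gene is 1 of 9 neighbouring snRNA genes of the same length in the RefSeq annotation, of which 5 had at least 1 library under 1 expected count, so that the division of reads between copies leaves its value uncertain. Summed over the 9 genes the level was 193, 78.62 and 403 CPM in groups of 300 and 263, 144 and 658 CPM in groups of 100. Over all 40 snRNA genes of this length it was 260, 130 and 614 CPM, against 394, 226 and 990 CPM. The sums were lower in 3 of 3 thioridazine pairs and also in 3 of 3 untreated pairs, with log2 ratios of -0.60, -0.80 and -0.69 under thioridazine and of -0.65, -1.17 and -1.07 in untreated embryos for the 40 genes. The levels spread more between replicate numbers than between group sizes, and the sums were chosen after the values were seen and were not tested.

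Other genes without a symbol and with a small p were LOC108698488, a long noncoding RNA at 5.06, 5.24 and 7.88 CPM in groups of 300 and 1.99, 1.63 and 5.31 CPM in groups of 100, and the protein-coding LOC121400670, at 1.95, 2.55 and 12.43 CPM, against 0.854, 0.503 and 1.18 CPM. For LOC121400670 most of the gap came from replicate 3 of groups of 300. On the lower side XB5856184.L, protein-coding, was at 6.42, 4.16 and 18.8 CPM, against 14.9, 5.66 and 72.3 CPM, and was lower in 3 of 3 pairs with replicate 3 highest in each group.

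Whether the group-size difference under thioridazine was unlike that in untreated embryos was tested as the difference of the 2 responses in the same fit. edgeR's quasi-likelihood test called 0 genes (0%), and 1176 (5.41%) had an unadjusted p below 0.05, against 1087 expected by chance. DESeq2 with the block called 2 genes and limma voom 0, with 696 and 1385 genes at an unadjusted p below 0.05. The lowest adjusted p of edgeR was 0.704. XB22064002.S and gbx2.1.L shared it, with unadjusted p of 4.9e-05 and 6.5e-05. XB22064002.S, a long noncoding RNA named after its values were seen, was at 105, 54.2 and 86.4 CPM in groups of 300 and 41.9, 33.6 and 69.3 CPM in groups of 100, against 51.1, 28.4 and 38.9 CPM in untreated groups of 300 and 92.2, 46.5 and 68.6 CPM in untreated groups of 100. Its log2 fold change was 0.76 under thioridazine (SE 0.19) and -0.80 without it (SE 0.19). DESeq2 gave this difference an adjusted p of 0.00419, and its other call was LOC121392961.

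Of the 12 genes with the smallest p on the higher side under thioridazine, 10 had a log2 fold change below 0 in untreated embryos. For egln3.L it was 0.67 with the drug and -0.60 without it, and for gbx2.1.L 0.71 and -0.57. h1-10.S lay above 0 in both (0.16 in untreated embryos). Of the 10 below 0 in untreated embryos, only egln3.L, gbx2.1.L, tnip2.L and ranbp3l.S were below 0 in each untreated pair. ppp1r14a.S was at -0.0075 (SE 0.18) in untreated embryos. The log2 ratios of the untreated pairs were -1.02, 0.01 and -0.04 for pdk4.L and -0.77, -0.04 and 0.07 for pdk3.L. Of the 12 on the lower side 7 lay below 0 in untreated embryos, the furthest being serpind1.L at -0.55. These genes were taken for their thioridazine values, so the gap between the 2 responses is in part set by that choice and no test is given for it. Over the hypoxia list the fitted median was 0.15 under thioridazine and -0.24 in untreated embryos. For the difference 18 of 47 members had an unadjusted p below 0.05, against 5.41% of all genes. Over the endoderm list these values were -0.01, -0.54 and 25 of 55, so that its gap lay mostly in the untreated embryos. Untreated 100 replicates 2 and 3 were shallower than the untreated groups of 300. They also had more snoRNA, at 3809 and 4334 CPM, against 1181, 1016 and 1330 CPM in untreated groups of 300. The part of these library differences in the untreated values and in the difference was not tested. Over all genes the count for the difference was 576 without thioridazine 100 replicate 1 and 2307 without untreated 100 replicate 1. Other lists also lay above the share over all genes for the difference. Among them were BMP, Nodal and TGF-beta signalling (20 of 89), notochord, tail bud and early mesoderm (12 of 56) and pronephros (10 of 44). Heart (7 of 29) and heat shock proteins (7 of 35) were others, while ribosomal proteins had 0 of 136. The list counts for the difference were not repeated without single libraries. Across all genes the sign of the group-size difference was shared by the 2 treatments for 52.7% of genes. Thioridazine and untreated pairs of the same number correlated at r = -0.11, 0.19 and 0.31 over the 21731 genes for numbers 1, 2 and 3.

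**Figure D5:**
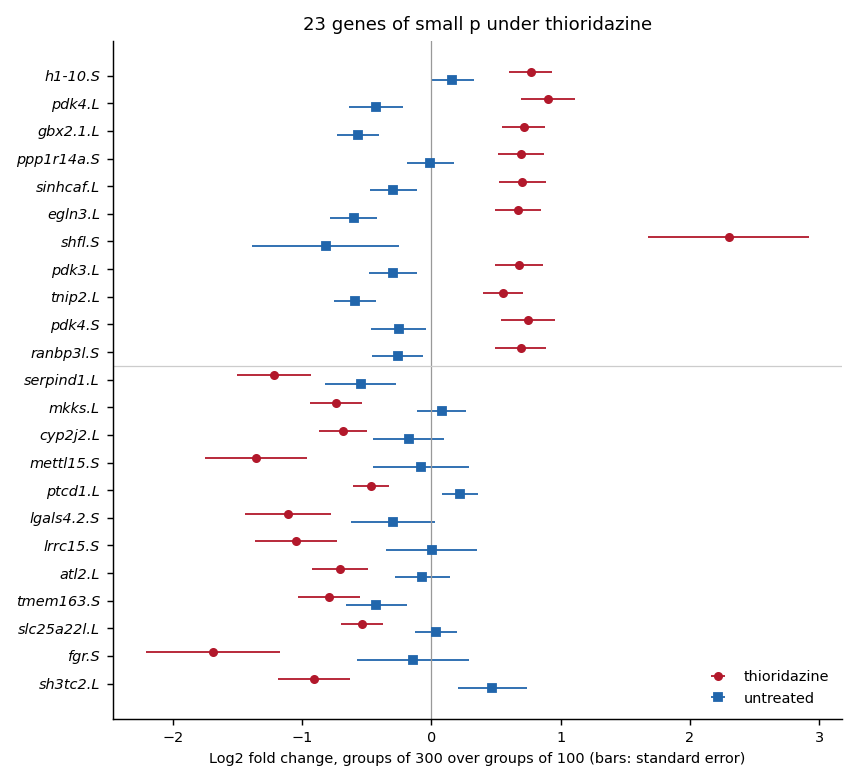
Log2 fold change of groups of 300 over groups of 100 with its standard error for 23 of the 24 genes of the smallest p under thioridazine, in thioridazine-treated embryos (red circles) and untreated embryos (blue squares). The 11 upper genes lie between 0.55 and 2.30 under thioridazine, and 10 of them lie below 0 in untreated embryos. Of these 10, ppp1r14a.S lies at -0.0075 in untreated embryos.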

How the data were processed

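RNA was depleted of ribosomal RNA and sequenced as single-end reads by the authors, who trimmed the reads, removed rRNA with Bowtie2, aligned the rest with STAR, and obtained expected counts for each gene from RSEM. A version is stated for the rRNA sequences, while tool versions and the genome build for STAR were not given in the sources used here. Of the deposited expected counts 25.7% were not whole, and these were rounded. A second deposited table, of log2 CPM, was not used.

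Genes at 1.8 CPM or more in at least 3 libraries were normalized by TMM and fitted with edgeR 4.0.16 (quasi-likelihood, robust) in R 4.3.3, as group means of 4 groups over 12 libraries with the replicate number as a block. The contrasts were thioridazine 300 against 100 and its difference from untreated 300 against 100, with Benjamini-Hochberg adjustment over 21731 genes and a threshold of 0.05. Pair ratios used a prior count of 2. The total expected counts per library, given in the report, limit the precision of genes near the filter. The scripts were tested on simulated data.

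The labels number the replicates alike in every group. Library deviations from their group mean had correlations between 0.282 and 0.769 where the number was shared (18 pairs), against -0.628 to 0.182 where it was not (36 pairs), so the number was used for pairing. No library duplicated another.

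The comparison, the 47 gene lists and the rules for named genes were chosen with earlier results of these data known. Named genes were the 12 with a symbol and the 2 without one of smallest p in each direction, 3 per list, the P2 and dopamine receptors, and the 8 in each direction with the largest ratio shared by 3 pairs. Genes beyond these were chosen after their values were seen. 1 gene that the rules name is not reported here. Of 42638 identifiers 40077 (94.0%) matched RefSeq symbols of Xenopus_laevis_v10.1, used for names and gene types only. Alternatives were DESeq2 1.42.0, limma 3.58.1 (voom), RLE size factors, other filters, unrounded counts, summed homeologs, no block, the thioridazine libraries alone and leaving out libraries.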

Additional observations from a re-analysis of the deposited data

How the results depend on the processing

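For thioridazine 300 against 100, edgeR's quasi-likelihood test called 0 genes with and without the replicate block, with RLE size factors, with no filter, with filterByExpr, with unrounded counts and with summed homeologs, and limma voom called 0. Without the replicate block 158 genes had an unadjusted p below 0.05 for this comparison and 215 for the difference of the group-size responses, against 648 and 1176 with it. On the thioridazine libraries alone edgeR called 1 gene, LOC121392961. DESeq2 called 1 gene, with 333 at an unadjusted p below 0.05, and 2 genes for the difference, with 696. With no filter on low counts edgeR called 1 gene for the difference, XB22064002.S (adjusted p 0.00432). The cause of these shifts was not tested.

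Leaving out 1 library at a time gave 0 to 3 calls and 343 to 997 genes at an unadjusted p below 0.05, with the lowest count without thioridazine 100 replicate 1 and the highest without untreated 100 replicate 1. For the difference it gave 0 to 2 calls and 576 to 2307 genes, from the same pair of libraries. The 3 calls, without untreated 100 replicate 1, were pdk4.L, LOC121392962 and LOC108703479. LOC121392961 was called without thioridazine 100 replicate 2 and without untreated 100 replicate 2, in both comparisons, and LOC121393357 was the second call for the difference without thioridazine 100 replicate 2. Without all libraries numbered 1 there was 1 call (LOC108703479), 1043 genes at an unadjusted p below 0.05 and 2 calls for the difference (LOC121392964 and LOC121393677). Without those numbered 2 there was 1 call (LOC121392961) and 2 for the difference, LOC121392961 and LOC121393357, and without those numbered 3 there were 0.

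The 28 genes of smallest p kept their sign in 644 of 644 values under the alternatives, and the 177 named genes changed sign in 19 of 4071. The 28 genes were taken for their small p, and the alternatives use the same libraries or a part of them. Their kept signs are therefore largely set by that choice and give no separate support. The counts of hypoxia and glycolysis genes under other settings, and the medians of the neural lists without single libraries, were added after the data were seen. With 3 pairs and a median standard error of 0.21, changes near or under 2-fold could be missed for most genes. Genes near the filter had the widest intervals. A log2 fold change of 0.77 with a SE of 0.17, that of h1-10.S, did not pass. Larger fitted changes did not pass either. Of the 199 genes with a fitted log2 fold change beyond 1 in size, none passed the adjusted threshold in the fit of the 12 libraries.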
